A study of Gallus gallus with 31 samples.

Results

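Abdominal fat of Ross chickens was compared with abdominal fat of Illinois chickens raised in the same trial, in 11 of the 31 RNA libraries of the study. The 4 Ross libraries (1195, 1196, 1197 and 1198) and the 7 Illinois libraries (1092, 1093, 1094, 1096, 1097, 1098 and 1099) were chosen by their labels: depot, line and the trial named Fall 13. Every library came from a male of 42 days marked Control, with feed and water at will, and the tissue was flash frozen at necropsy. Ross 708 is a commercial broiler named in the study's design text, and the labels name the other line only as Illinois. Each library carries its own number, but the labels do not say whether each came from a separate bird, and the p-values below rest on how much the libraries of a group varied, which may in part be technical. Set beside these groups, where named, were 4 Ross abdominal libraries of an earlier trial, Fall 12 (1199 to 1202), and the Fall 13 cardiac fat of both lines (4 Ross and 8 Illinois libraries).

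Abdominal fat is the main visceral fat store of the broiler. Its fat cells arise from precursor cells of the stroma under the nuclear receptor PPARG, and they carry fatty acids on the binding protein FABP4, while in birds most new fatty acids are made in the liver and brought in by the blood. Wnt and BMP ligands act on the precursors, and Wnt signals are known from mammalian cells to hold fat cell formation back. The pad also holds vessels, matrix-producing fibroblasts and immune cells, and a bulk library mixes them all: fewer cells of a type and less RNA per cell cannot be told apart.

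Fat identity was clear in every library. FABP4 was the most abundant gene of the 564 in the part of the table analysed here, at 13610 FPKM or more in each. FPKM counts fragments relative to transcript length and to all mapped fragments of a library, so levels of different genes can be set side by side. Of 7 fat cell markers, 3 were in that part of the table (FABP4, PPARG and CAV1), and their summed level was 13960 to 15670 FPKM in Ross and 16660 to 30220 FPKM in Illinois. FABP4 made up nearly all of this sum. CAV1 averaged 248.5 FPKM in Ross and 473.5 FPKM in Illinois. PPARG had the higher mean in Ross, 77.5 against 59.5 FPKM, and was not called. Libraries of one line resembled each other, with correlations across genes of 0.914 to 0.946 among Ross, 0.849 to 0.928 among Illinois and 0.824 to 0.890 between the lines.

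The depth of the libraries differed between the lines without overlap. Steps between low values put the depth, relative to the typical library of the study, at 0.617 ± 0.102 in Ross (SD, n = 4) and 1.45 ± 0.151 in Illinois (n = 7). Genes listed at the floor of 0.001 FPKM numbered 78 to 94 in Ross and 60 to 77 in Illinois, while genes at 1 FPKM or more numbered 376 to 387 in Ross and 373 to 391 in Illinois. Library numbers of the lines were also separate blocks, so line, depth and any batch that follows the numbers cannot be told apart. The 4 Ross libraries of Fall 12, numbered next to those of Fall 13, had like depths of 0.59 to 0.70. Their values are given beside those of many, but not all, of the genes described.

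In Ross abdominal fat, 38 genes were lower and 9 were higher than in Illinois abdominal fat, of 398 genes tested. The genes that fell included the chemokine CXCL12, the Wnt receptors FZD6 and FZD1, the RNA-binding protein CELF1, the cell cycle inhibitor CDKN2A, the cholesterol exporter ABCA1 and the fat cell genes FABP4 and CAV1. Those that rose included the chromatin protein HMGA1, the cytoskeletal genes ACTN1 and ADD3, the glycine-degrading enzyme GLDC and the homeodomain-only protein HOPX. A gene was tested if it had at least 1 FPKM in at least 4 of the 11 libraries, and it was called if limma's moderated test on log2(FPKM + 1) gave an adjusted p below 0.05 across all tested genes. The calls made up 11.8% of the tested genes, 9.55% lower and 2.26% higher, with adjusted p between 8.89e-05 and 0.0465. A gene at 1 FPKM or more only in Illinois could pass the filter with 4 of 7 libraries, while one only in Ross needed all 4. With no filter on low values, 17 genes were higher and 40 lower of 564 tested. In all 47 called genes the 4 Ross libraries lay beyond the Illinois median on the called side. In 28 of them the groups did not overlap at all, with Ross below in 22 and above in 6. Both patterns are made likely by the call itself, which used the same libraries. Among all tested genes the groups did not overlap in 41 (10.3%), with Ross below in 8.04% and above in 2.26%.

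The median log2 fold change of all tested genes, Ross minus Illinois, was −0.16, with 162 genes above 0 and 236 below. Quantile normalization, which forces every library to the same set of values, brought this median to −0.00 and gave 31 higher and 32 lower genes, and median ratio scaling gave 23 higher and 37 lower. The margin of lower over higher genes depended on the scaling, and the counts were nearly equal after quantile normalization. Of the 47 calls, 35 were among the 63 made after quantile normalization. Leaving out single Ross libraries lowered the number called to 29 without 1196, 27 without 1197 and 20 without 1198.

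**Figure D1:**
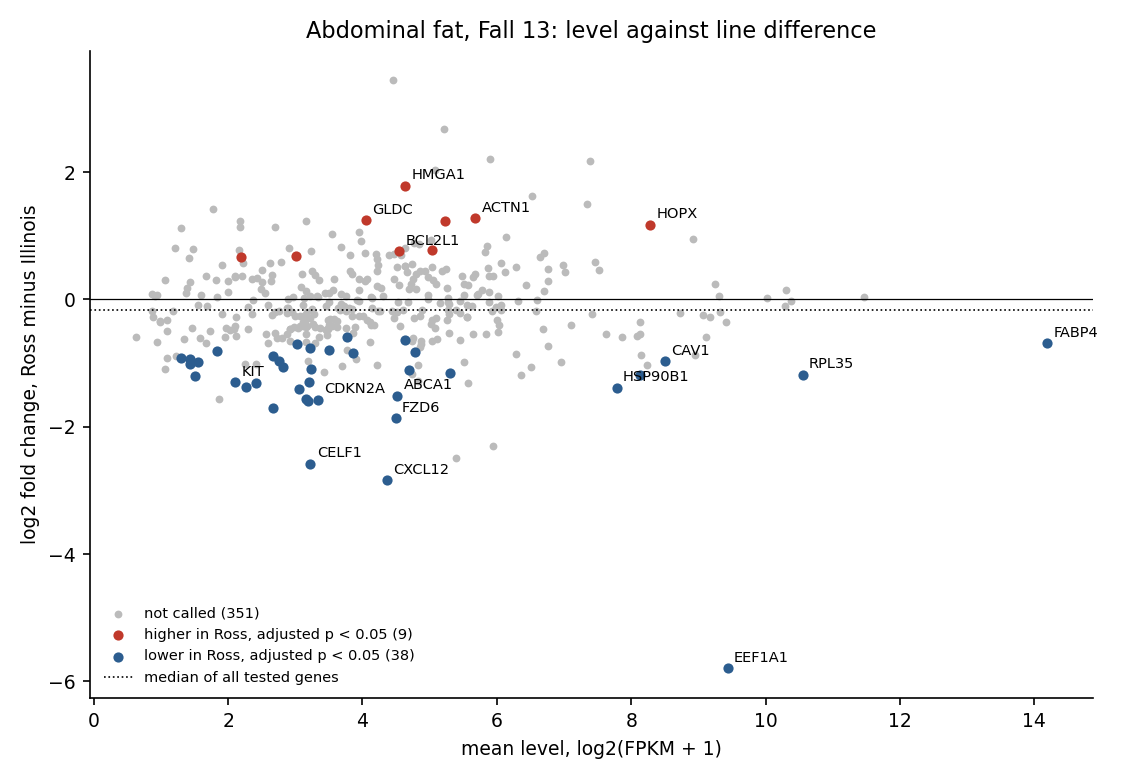
Each point is 1 of 398 tested genes, with the mean level of the Ross and Illinois means as log2(FPKM + 1) across and the log2 fold change, Ross minus Illinois, upwards. Red points are the 9 genes higher in Ross, blue points the 38 genes lower, and the dotted line marks the median of all genes at −0.16. EEF1A1 lies lowest at −5.80, CXCL12 next among called genes at −2.84, and FABP4 farthest to the right.

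CXCL12, a chemokine that guides and retains cells bearing the receptor CXCR4, showed the smallest p of the comparison. CXCL12 (Entrez gene 395180) stood at 3.71, 2.33, 5.17 and 4.53 FPKM in the Ross libraries, against a lowest of 17.6, a median of 34.6 and a highest of 50.3 FPKM in Illinois. Every Ross library lay far below every Illinois library. The means were 3.94 ± 1.22 FPKM in Ross and 35.1 ± 11.8 FPKM in Illinois (SD, n = 4 and 7), which gives −2.84 ± 0.28 on the log2 scale (SE; limma adjusted p = 8.89e-05). The call held in all alternatives and all leave-outs, with adjusted p no higher than 0.000773. The Ross libraries of Fall 12 held 67.9, 79.2, 40.1 and 30.0 FPKM of CXCL12, far above those of Fall 13. Why the trials differed was not tested.

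KIT, the receptor tyrosine kinase for stem cell factor, was also lower, at 1.59, 0.931, 1.52 and 1.91 FPKM in Ross, against a lowest of 3.19, a median of 5.28 and a highest of 5.95 FPKM in Illinois. The groups did not overlap, and the log2 fold change was −1.30 ± 0.21 (adjusted p = 0.00345). For KIT the Fall 12 Ross libraries, at 1.26 to 2.30 FPKM, lay near those of Fall 13. Of 14 tested chemokine, cytokine and receptor genes, CXCL12 and KIT fell and none rose, beside 9.55% and 2.26% of all tested genes. The list's median of −0.05 was close to 0, beside −0.16 for all genes. The other 12 included IL1B, IL15, IL16, LITAF, TGFBR1 and LIFR.

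A total of 3 Wnt genes fell among 9 tested, beside 9.55% of all tested genes. FZD6, a frizzled receptor that binds Wnt ligands at the cell surface, held 8.85, 7.04, 13.3 and 5.74 FPKM in Ross, against 23.5 at the lowest, 32.9 at the median and 49.6 FPKM at the highest in Illinois. The highest Ross library stayed well under the lowest Illinois library, and the log2 fold change was −1.87 ± 0.27 (adjusted p = 0.00153). FZD1, a second receptor of the family, was at 4.07, 0.602, 0.453 and 2.34 FPKM in Ross, against 3.46, 5.41 and 9.94 FPKM as the lowest, median and highest in Illinois. Only Ross library 1195 reached into the Illinois range, and the log2 fold change was −1.37 ± 0.37 (adjusted p = 0.0316). AXIN2, a scaffold that limits beta-catenin and is itself switched on by it, averaged 0.835 ± 0.368 FPKM in Ross and 2.56 ± 0.883 FPKM in Illinois (log2 fold change −0.94 ± 0.24, adjusted p = 0.0243), with no overlap. The median log2 fold change of the 9 Wnt genes was −0.53, beside −0.16 for all tested genes.

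The other 6 Wnt genes were not called, among them FZD4, another receptor of the family, at 24 to 36.1 FPKM in Ross and 31.8 to 60.7 FPKM in Illinois (adjusted p = 0.0982). FZD7 was at 0.879 to 2.70 FPKM in Ross and 1.76 to 4.17 FPKM in Illinois (adjusted p = 0.0956). TNKS2, a tankyrase that marks axin proteins for removal and is on no list, averaged 5.87 ± 0.793 FPKM in Ross and 10.8 ± 2.42 FPKM in Illinois (log2 fold change −0.76 ± 0.19, adjusted p = 0.0252). The TNKS2 call was lost under all 3 other scalings (adjusted p of up to 0.123) and without Ross library 1195 (0.0563), 1197 (0.0722) or 1198 (0.0553). The call of FZD1 was lost without Ross library 1196 (adjusted p = 0.0945), 1197 (0.0868) or 1198 (0.0553) and without Illinois library 1098 (0.0511), and that of AXIN2 without Ross library 1195 (0.0567), 1197 (0.0722) or 1198 (0.0523). With Fall 12 in the fit and trial as an additive term, AXIN2 was at −0.62 and not called (0.102). The Fall 12 Ross libraries held 13.8 to 44.8 FPKM of FZD6, 3.86 to 13.8 FPKM of FZD1 and 3.16 to 8.18 FPKM of AXIN2. For TNKS2 they held 9.81 to 13.3 FPKM.

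BMP and TGF-beta genes had 3 members lower and none higher among 15 tested, with a median log2 fold change of −0.44. Of all tested genes 9.55% were lower and 2.26% higher. BMPR2, the type II receptor that BMP ligands bind, was at 8.98, 4.86, 3.97 and 3.06 FPKM in Ross, against a lowest of 8.43, a median of 10.9 and a highest of 16.4 FPKM in Illinois. Ross library 1195 lay above the lowest Illinois library, 1094, and below the other 6, and the log2 fold change was −1.09 ± 0.25 (adjusted p = 0.0191). SMAD3, which carries TGF-beta signals to the nucleus, was narrow in both groups, at 9.83 ± 0.660 FPKM in Ross and 15.5 ± 2.35 FPKM in Illinois (log2 fold change −0.60 ± 0.16, adjusted p = 0.0323). ID4, an inhibitor of helix-loop-helix factors that BMP signals induce, was at 2.68 to 4.04 FPKM in Ross and 3.89 to 11.1 FPKM in Illinois (log2 fold change −0.89 ± 0.27, adjusted p = 0.0464).

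These calls differ in how firmly they stood. Without Ross library 1197 or 1198 the BMPR2 call was lost (adjusted p = 0.0556 and 0.0606), SMAD3 was called in 4 of 11 leave-outs and ID4 in 2 of 11, with adjusted p of up to 0.103 and 0.111. After quantile normalization SMAD3 had an adjusted p of 0.0689 and ID4 of 0.103. In Fall 12 the Ross libraries held 24.3 to 43.2 FPKM of BMPR2, above both groups of Fall 13. They held 10.6 to 15.45 FPKM of SMAD3 and 3.62 to 6.575 FPKM of ID4. SUFU, which restrains Hedgehog signalling by holding its GLI factors, was the sole tested Hedgehog gene and rose. It stood at 8.62, 9.58, 8.24 and 9.17 FPKM in Ross, against 4.23, 5.14 and 6.89 FPKM as the lowest, median and highest in Illinois, with no overlap (log2 fold change 0.69 ± 0.17, adjusted p = 0.0252). Its call was lost without any 1 of the 4 Ross libraries or Illinois library 1099, with adjusted p between 0.0502 and 0.0757, and when other libraries shared the estimate of the spread (0.0771 with 23 and 0.0589 with 31). SUFU in Ross of Fall 12 was at 15.7 to 18.1 FPKM.

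**Figure D2:**
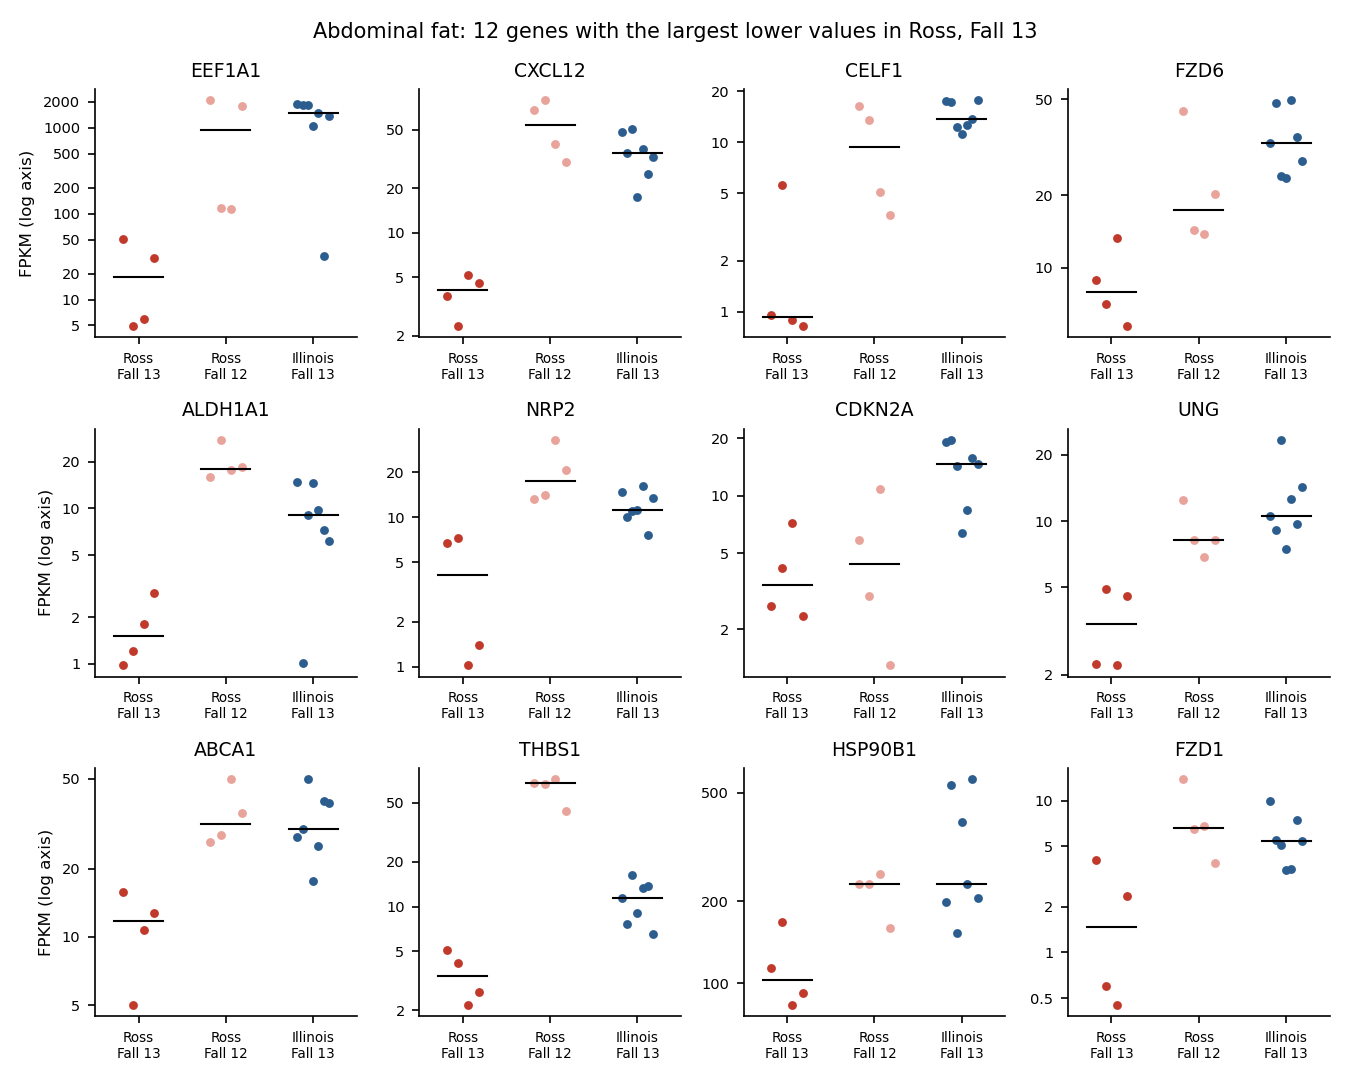
Each panel shows 1 of the 12 genes with the largest falls, with FPKM on a log axis, 1 point per library and a bar at the group median. Groups run from Ross Fall 13 over Ross Fall 12 to Illinois Fall 13. For CXCL12, CELF1 and FZD6 every Fall 13 Ross library lies below every Illinois library, while THBS1 reaches 43.8 to 72.0 FPKM in Ross of Fall 12.

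Of 3 tested fat cell genes, FABP4 and CAV1 were lower and DBI was not called. Among all tested genes, 9.55% were lower and 2.26% higher. FABP4 was at 13610, 15300, 14050 and 13780 FPKM in Ross, against a lowest of 16180, a median of 23770 and a highest of 29590 FPKM in Illinois. Every Ross library was below every Illinois library. The log2 difference was −0.69 ± 0.15 (SE; limma adjusted p = 0.0159), or −0.53 relative to the median of all genes. FABP4 took 35.8% ± 1.20 of the summed FPKM of the 564 genes in Ross (SD, n = 4) and 43.0% ± 3.71 in Illinois (n = 7). By a two-sided exact permutation test over 330 splits this difference had p = 0.00606, the smallest that the design allows. Quantile normalization gives the most abundant gene 1 value in all libraries, so FABP4 has a change of 0.00 there. The call was also lost without Ross library 1198 (adjusted p = 0.0507), and when other Fall 13 or all 31 libraries shared the estimate of the spread (0.263 and 0.259). FABP4 in Ross of Fall 12 was at 12100 to 16750 FPKM.

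CAV1, the coat protein of the caveolae that are dense in fat cell membranes, was at 272, 279, 296 and 147 FPKM in Ross, against 401, 475 and 578 FPKM as the lowest, median and highest in Illinois. Ross library 1198 stood apart at the low end, and the groups did not overlap (log2 fold change −0.97 ± 0.21, adjusted p = 0.0152). CAV1 was not called after quantile normalization (−0.59, adjusted p = 0.0951), and Ross of Fall 12 held 305.5 to 406.6 FPKM of it. DBI, the acyl-CoA binding protein and the third tested member of the list, had a log2 fold change of 0.15 and was not called. ABCA1, which passes cholesterol and phospholipid out of cells, held 15.8, 5.02, 10.8 and 12.8 FPKM in Ross, against a lowest of 17.6, a median of 29.8 and a highest of 49.6 FPKM in Illinois. The groups came close but did not overlap, and the log2 fold change of −1.51 ± 0.32 (adjusted p = 0.0141) was called in every alternative and leave-out. ABCA1 in Ross of Fall 12 was at 26.3 to 49.7 FPKM, far above Ross of Fall 13.

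None of the 6 adipogenic and lipid-sensing regulators was called. PPARG was at 81.3, 89.5, 66.0 and 73.2 FPKM in Ross, against a lowest of 38.0, a median of 58.4 and a highest of 92.9 FPKM in Illinois (log2 fold change 0.42, 95% interval −0.10 to 0.95, adjusted p = 0.254). The Ross libraries lay inside the Illinois range. In Fall 12 the Ross libraries held 34.9 to 56.4 FPKM of PPARG. PPARA, the nuclear receptor that drives fatty acid oxidation, was at 7.99, 9.45, 1.81 and 2.45 FPKM in Ross, against 0.001, 1.97 and 2.24 FPKM as the lowest, median and highest in Illinois. Ross libraries 1195 and 1196 stood far above the others, and the fold change of 1.14 ± 0.42 was not called (adjusted p = 0.0950).

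ME1, the malic enzyme that supplies NADPH for fatty acid synthesis, had a higher mean in Ross without passing the test, at 36.3 ± 17.3 FPKM in Ross and 19.0 ± 6.66 FPKM in Illinois (log2 fold change 0.87 ± 0.32, adjusted p = 0.0950). After quantile normalization PPARA and ME1 passed, with adjusted p of 0.0406 and 0.0420. GLDC, the decarboxylase that opens glycine breakdown in mitochondria, did rise, with 21.2, 16.9, 35.8 and 15.2 FPKM in Ross, against 5.03, 7.2 and 14.0 FPKM as the lowest, median and highest in Illinois. Its groups did not overlap (log2 fold change 1.25 ± 0.32, adjusted p = 0.0270), but the call was lost without Ross library 1195 (0.0511) or 1197 (0.0840), and with trial as an additive term over all 31 libraries (0.0777). The Fall 12 Ross libraries held only 2.27 to 6.86 FPKM of GLDC, below those of Fall 13.

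HMGA1, an architectural chromatin protein abundant in dividing and immature cells, had the largest rise among called genes. It was at 20.7, 49.1, 43.0 and 35.1 FPKM in Ross, against a lowest of 5.28, a median of 8.01 and a highest of 19.4 FPKM in Illinois. The lowest Ross library, 1195, was just above the highest Illinois library, and the log2 fold change was 1.79 ± 0.38 (adjusted p = 0.0141). This call held in every alternative and leave-out. In Fall 12 the Ross libraries were at 49.1 to 57.7 FPKM. HDAC4, a histone deacetylase that shuttles between cytoplasm and nucleus, fell to 3.69 ± 1.94 FPKM in Ross, against 7.85 ± 2.21 FPKM in Illinois (log2 fold change −0.97 ± 0.29, adjusted p = 0.0465), but was called in 3 of 11 leave-outs, with adjusted p of up to 0.145. HDAC4 in Ross of Fall 12 was at 7.83 to 9.54 FPKM. HDAC1, HAT1 and CBX1, the other tested chromatin genes, were not called.

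CDKN2A, which in birds encodes the ARF protein that frees p53 from MDM2, was the 1 called gene among 11 tested genes of cell division. It was at 2.63, 4.18, 7.19 and 2.36 FPKM in Ross, against a lowest of 6.39, a median of 14.7 and a highest of 19.6 FPKM in Illinois. Ross library 1197 overlapped the lowest Illinois library, and the log2 fold change was −1.57 ± 0.33 (adjusted p = 0.0141), called under every setting. The Fall 12 Ross libraries were at 1.29 to 10.8 FPKM. The 10 other tested members, among them PCNA, CCND2, CDKN1B, BUB1B and NDC80, were not called, and 9 of the 11 fold changes were below 0 (median −0.31). Over all 398 tested genes, 9.55% were called lower and 236 fold changes were below 0 (median −0.16). UNG, the glycosylase that removes uracil from DNA, was at 2.23, 4.93, 2.21 and 4.54 FPKM in Ross, against 7.49, 10.6 and 23.4 FPKM as the lowest, median and highest in Illinois, with no overlap (−1.57 ± 0.30, adjusted p = 0.00946). The UNG call was lost with trial as an additive term over all 31 libraries (0.0595). Ross of Fall 12 held 6.84 to 12.5 FPKM of UNG.

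The apoptosis list held 1 gene in each direction among 11 tested, beside 9.55% lower and 2.26% higher of all tested genes. BCL2L1, which keeps mitochondria from releasing cytochrome c, was at 28.3, 37.4, 24.7 and 23.4 FPKM in Ross, against a lowest of 11.7, a median of 16.3 and a highest of 19.6 FPKM in Illinois (log2 fold change 0.76 ± 0.19, adjusted p = 0.0237). BID, a BH3-only protein that acts against it, was at 7.46, 7.37, 7.98 and 6.05 FPKM in Ross, against 8.66, 13.8 and 17.7 FPKM as the lowest, median and highest in Illinois (−0.80 ± 0.19, adjusted p = 0.0191). Neither gene's groups overlapped. The BCL2L1 call was lost without Ross library 1196 (adjusted p = 0.0801) and the BID call without 1198 (0.0606). Ross of Fall 12 held 35.5 to 50.6 FPKM of BCL2L1 and 5.98 to 13.4 FPKM of BID. HIPK2, a kinase upstream of p53, narrowly missed the threshold at 72.4 ± 10.5 FPKM in Ross and 41.5 ± 12.5 FPKM in Illinois (adjusted p = 0.0501).

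The cytoskeleton list, with 13 tested genes, had ACTN1 and ADD3 higher and CAV1 lower, and a median of −0.02. Of all tested genes 2.26% were higher and 9.55% lower. ACTN1, the alpha-actinin that bundles actin in non-muscle cells, was at 71.5, 100, 46.5 and 66.5 FPKM in Ross, against a lowest of 17.6, a median of 25.8 and a highest of 52.6 FPKM in Illinois. Ross library 1197 fell within the Illinois range, and the log2 fold change was 1.28 ± 0.29 (adjusted p = 0.0170), lost without Ross library 1196 (0.0526). ADD3, an adducin that caps actin and ties it to spectrin, was at 63.3, 61.9, 30.1 and 49.1 FPKM in Ross, against 11.7, 17.2 and 37.5 FPKM in Illinois (1.24 ± 0.33, adjusted p = 0.0320). ADD3 was called in 6 of 11 leave-outs, with adjusted p of up to 0.0935. LIMK1, the kinase that stops cofilin from cutting actin, rose at a lower level, 4.57 ± 0.343 FPKM in Ross and 2.54 ± 0.523 FPKM in Illinois, with no overlap (0.67 ± 0.19, adjusted p = 0.0406), but was called in only 4 of 11 leave-outs (adjusted p up to 0.103). In Ross of Fall 12, ACTN1 was at 45.6 to 57.0 FPKM, ADD3 at 34.3 to 97.9 FPKM and LIMK1 at 2.96 to 3.31 FPKM.

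HOPX, a small homeodomain protein that does not bind DNA and is known from heart development, was at 369, 367, 550 and 433 FPKM in Ross, against a lowest of 122, a median of 182 and a highest of 247 FPKM in Illinois. The groups stood well apart (log2 fold change 1.18 ± 0.22, adjusted p = 0.00946), and the call held in all 11 leave-outs. It was lost with the spread shared over the 23 libraries of Fall 13 (adjusted p = 0.0588) or all 31 libraries (0.133). Trial as an additive term gave an adjusted p of 0.05935. In the Fall 12 Ross libraries HOPX ran between 324 and 3613 FPKM. SSBP3, a partner of LIM-domain transcription complexes, was at 40.1 ± 7.14 FPKM in Ross and 23.2 ± 6.16 FPKM in Illinois (0.78 ± 0.21, adjusted p = 0.0331), and was called in 5 of 11 leave-outs (adjusted p up to 0.0983). SSBP3 in Ross of Fall 12 was at 31.5 to 38.0 FPKM.

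Some muscle markers were higher in Ross, beside these rises. Of 15 such markers, 4 were in the part of the table analysed here, and their summed level was 0.935 to 9.30 FPKM in Ross and 0.0231 to 0.396 FPKM in Illinois. CASQ2, a calcium store protein of heart and slow muscle, was at 0.672, 5.10, 3.57 and 3.12 FPKM in Ross and at most 0.206 FPKM in Illinois, while MYOG was at the floor in all 4 Ross libraries and MYOD1 overlapped between the groups. CASQ2 and MYH7B made up most of the sum in Ross. In Ross of Fall 12, CASQ2 was at 0.001 to 0.502 FPKM and MYH7B at 0.001 to 0.0400 FPKM. The 2 genes of the muscle list that passed the filter were not called, NEBL at −0.53 (adjusted p = 0.0956) and SMYD1 at 0.37 (0.542). The part of muscle RNA in the rises of HOPX and ACTN1 was not tested in abdominal fat. In Illinois cardiac libraries 1107 and 1112, where CASQ2 reached 36.3 and 27.5 FPKM, HOPX was at 60.3 and 27.3 FPKM, against 76.5 to 215 FPKM in the other 6. HMGA1 in the same pair was at 15.3 and 36.4 FPKM, against 4.46 to 9.92 FPKM in those 6, and ACTN1 was at 18.2 and 35.7 FPKM, against 16.6 to 28.4 FPKM.

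**Figure D3:**
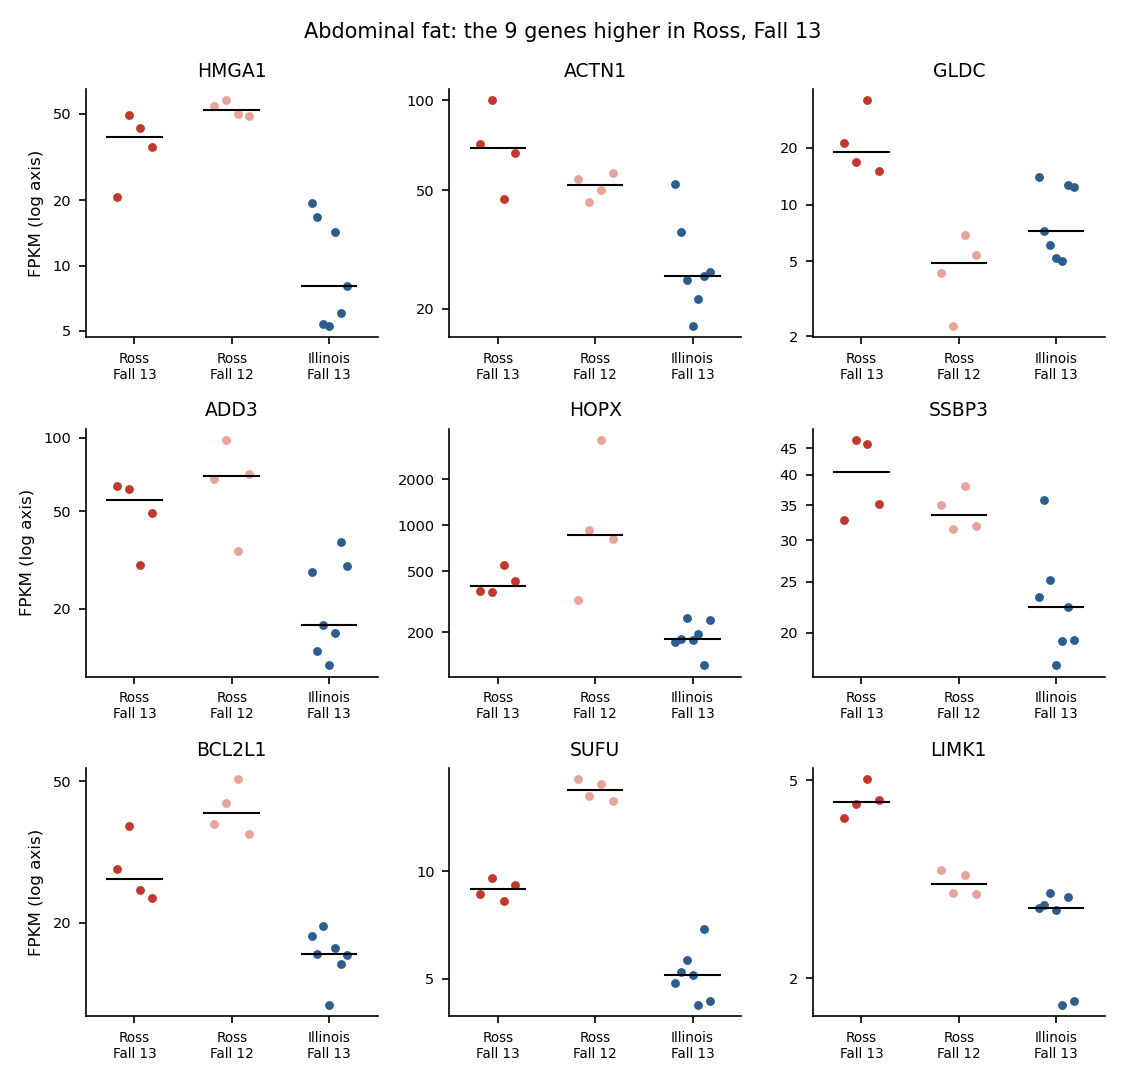
Each panel shows 1 of the 9 genes that rose in Ross abdominal fat of Fall 13, with FPKM on a log axis, 1 point per library and a bar at the group median. Groups run from Ross Fall 13 over Ross Fall 12 to Illinois Fall 13. In 6 panels no Fall 13 Ross library reaches down to an Illinois library, and HOPX spreads from 324 to 3613 FPKM in Ross of Fall 12.

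Matrix genes had 2 members lower and none higher among 14 tested, beside 9.55% lower and 2.26% higher of all tested genes. FBN2, a fibrillin of elastic microfibrils, was at 1.08, 1.69, 4.66 and 1.20 FPKM in Ross, against a lowest of 2.65, a median of 6.35 and a highest of 9.69 FPKM in Illinois (log2 fold change −1.30 ± 0.34, adjusted p = 0.0270). Only Ross library 1197 lay within the Illinois range. CTGF, now also called CCN2, a matricellular protein induced by TGF-beta and stretch, fell to 23.4 ± 8.49 FPKM in Ross, against 53.5 ± 17.6 FPKM in Illinois (−1.16 ± 0.30, adjusted p = 0.0270). The FBN2 call was lost without Ross library 1195 (adjusted p = 0.0704), 1196 (0.0754) or 1198 (0.0921), and the CTGF call without 1196 (0.0853), 1197 (0.0837) or 1198 (0.0553). Ross of Fall 12 held 1.05 to 2.94 FPKM of FBN2 and 27.3 to 53.9 FPKM of CTGF. The list's median was −0.13, and its mean −0.27. The fibroblast markers FBLN1 and SPARC summed to 895 to 1860 FPKM in Ross and 699 to 2078 FPKM in Illinois.

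THBS1, a thrombospondin on no list that can free TGF-beta from its latent form and restrains vessel growth, was at 5.10, 4.17, 2.18 and 2.67 FPKM in Ross, against 6.56, 11.4 and 16.4 FPKM as the lowest, median and highest in Illinois. The groups did not overlap (log2 fold change −1.41 ± 0.27, adjusted p = 0.00948). Ross libraries of Fall 12 held 68.0, 67.3, 72.0 and 43.8 FPKM of THBS1, above both groups of Fall 13. With the Fall 12 libraries in the fit and trial as an additive term, THBS1 was not called (adjusted p = 0.158).

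NRP2, a co-receptor for semaphorins and VEGF, was the 1 called gene among 8 endothelial genes and among 9 axon guidance genes. These counts stand beside 9.55% lower and 2.26% higher of all tested genes. NRP2 was at 6.78, 7.26, 1.02 and 1.40 FPKM in Ross, against a lowest of 7.67, a median of 11.1 and a highest of 16.1 FPKM in Illinois. The Ross libraries formed 2 pairs, both below Illinois (log2 fold change −1.60 ± 0.39, adjusted p = 0.0198), and the call was lost without 1197 (0.0630) or 1198 (0.0703). NRP2 in Ross of Fall 12 was at 13.2 to 33.1 FPKM. CDH5, the cadherin that seals endothelial junctions, was not called at 57.9 ± 22.0 FPKM in Ross and 123 ± 41.8 FPKM in Illinois (adjusted p = 0.0621). The 5 endothelial markers summed to 174 to 310 FPKM in Ross and 172 to 396 FPKM in Illinois. The immune markers PTPRC and IGJ summed to 18.6 to 59.0 FPKM in Ross and 8.31 to 87.7 FPKM in Illinois.

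CELF1, which binds GU-rich RNA and steers splicing and decay, was at 0.959, 5.57, 0.893 and 0.824 FPKM in Ross, against 11.2, 13.8 and 17.7 FPKM as the lowest, median and highest in Illinois. Ross library 1196 stood above its group yet below every Illinois library (log2 fold change −2.58 ± 0.33, adjusted p = 0.000635), and the call held under every setting. Of the 6 RNA-binding and splicing genes tested, the other 5 (CELF2, HNRNPH1, QKI, YBX1 and KHDRBS1) were not called, beside 9.55% lower of all tested genes. The Fall 12 Ross libraries were spread between 3.71 and 16.3 FPKM of CELF1. ADARB1, an RNA-editing deaminase on no list, averaged 9.38 ± 2.61 FPKM in Ross and 17.6 ± 3.87 FPKM in Illinois (−0.84 ± 0.23, adjusted p = 0.0332), and it was lost under all 3 other scalings (adjusted p = 0.0562 to 0.105) and when other libraries entered the fit (0.0681 to 0.0991). ADARB1 in Ross of Fall 12 was at 9.63 to 17.7 FPKM.

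Translation genes had 2 members lower among 9 tested, beside 9.55% lower of all tested genes. RPL35, a protein of the large ribosomal subunit, was at 674, 998, 799 and 1128 FPKM in Ross, against a lowest of 1321, a median of 2077 and a highest of 3398 FPKM in Illinois (log2 fold change −1.18 ± 0.27, adjusted p = 0.0163), with no overlap. Ross of Fall 12 held 708 to 1298 FPKM of RPL35. The other ribosomal proteins tested, RPL5, RPL6, RPL14, RPL22, RPL36 and RPSA, were not called. EEF1A1, the elongation factor that delivers tRNA to the ribosome, was at 51.0, 4.96, 5.99 and 30.2 FPKM in Ross, against 32.3, 1474 and 1884 FPKM as the lowest, median and highest in Illinois (−5.80 ± 1.15, adjusted p = 0.0141). Its values fell into a low and a high class: Illinois library 1098 was low, and the Fall 12 Ross libraries held 2093, 118, 114 and 1773 FPKM. Where either gene has close copies, fragments could be split between them and its values would be uncertain. Whether this was so was not tested. HSP90B1, the chaperone of the endoplasmic reticulum, was at 114 ± 37.8 FPKM in Ross and 325 ± 170 FPKM in Illinois (−1.39 ± 0.38, adjusted p = 0.0323), and was lost without Ross library 1195 (0.0563), 1197 (0.0868) or 1198 (0.103) and after quantile normalization (0.0776). HSP90B1 in Ross of Fall 12 was at 159.5 to 251.9 FPKM.

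ARNTL, also known as BMAL1, the positive arm of the circadian clock with CLOCK, was at 16.6, 15.7, 13.1 and 14.6 FPKM in Ross, against a lowest of 22.7, a median of 38.9 and a highest of 50.0 FPKM in Illinois. The Ross libraries were narrow and lay below all of Illinois (log2 fold change −1.11 ± 0.24, adjusted p = 0.0152), and the call held under every setting. ARNTL in Ross of Fall 12 ran from 15.9 to 35.3 FPKM. The other 6 clock genes, CLOCK, ARNTL2, PER2, CRY1, CRY2 and CSNK1E, were not called, beside 9.55% lower of all tested genes. The labels do not give the hour of necropsy. ALDH1A1, which makes retinoic acid from retinaldehyde, was at 0.981, 1.22, 1.81 and 2.84 FPKM in Ross, against 1.02, 9.10 and 14.8 FPKM as the lowest, median and highest in Illinois. Illinois library 1093, at 1.02 FPKM, was the sole one among the Ross values (−1.70 ± 0.48, adjusted p = 0.0361). The ALDH1A1 call held in 1 of 11 leave-outs, with adjusted p of up to 0.0947, and it was lost after quantile normalization (0.0659) or median ratio scaling (0.0519), without the filter on low values (0.0591) and with trial as an additive term (0.0915). The Fall 12 Ross libraries were at 15.8 to 27.6 FPKM.

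The remaining 11 genes that fell were on no list. SAT1, the acetyltransferase that starts polyamine breakdown, was at 207, 122, 197 and 151 FPKM in Ross, against a lowest of 244, a median of 386 and a highest of 569 FPKM in Illinois (log2 fold change −1.18 ± 0.25, adjusted p = 0.0141). SAT1 was lost after quantile normalization (0.0614). LMBR1, a membrane protein whose intron holds the limb enhancer of sonic hedgehog, averaged 4.41 ± 1.72 FPKM in Ross and 12.0 ± 2.98 FPKM in Illinois (−1.29 ± 0.25, adjusted p = 0.00946) and was called under every setting in which it was tested. The Fall 12 Ross libraries held 7.76 to 12.5 FPKM of LMBR1, and 123 to 222 FPKM of SAT1. ADAM10, the protease that sheds Notch and other surface proteins, was at 18.5 ± 2.78 FPKM in Ross and 34.4 ± 9.09 FPKM in Illinois (−0.83 ± 0.23, adjusted p = 0.0331). Ross of Fall 12 held 39.2 to 41.4 FPKM of ADAM10. PSEN2, a catalytic part of gamma-secretase that cuts Notch within the membrane, was at 18.5 ± 3.10 FPKM in Ross and 29.3 ± 4.82 FPKM in Illinois (−0.64 ± 0.18, adjusted p = 0.0409), and POFUT1, which adds fucose to Notch, was at 5.25 ± 1.25 FPKM in Ross and 9.09 ± 1.99 FPKM in Illinois (−0.69 ± 0.21, adjusted p = 0.0465). The calls of ADAM10, PSEN2 and POFUT1 held in 5, 3 and 2 of 11 leave-outs, with adjusted p of up to 0.105, 0.111 and 0.145. With Fall 12 in the fit and trial as an additive term, PSEN2 was at −0.34 on the log2 scale (adjusted p = 0.685) and POFUT1 at −0.21 (0.799). With all 31 libraries as 6 groups their adjusted p was 0.440 and 0.347. Ross of Fall 12 held 22.5 to 34.0 FPKM of PSEN2 and 5.555 to 8.36 FPKM of POFUT1.

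Adhesion and surface proteins were among the rest, all at low levels. PTPRU, a receptor tyrosine phosphatase, averaged 3.51 ± 1.04 FPKM in Ross and 8.53 ± 2.93 FPKM in Illinois (log2 fold change −1.06, adjusted p = 0.0191). In Ross of Fall 12 it was at 7.78 to 11.3 FPKM. ARVCF, a catenin bound to cadherins, averaged 0.957 ± 0.287 FPKM in Ross and 2.92 ± 0.859 FPKM in Illinois (−0.98, adjusted p = 0.0192). EMB, a partner of monocarboxylate transporters, was at 0.624 to 0.735 FPKM in Ross and 1.52 to 3.64 FPKM in Illinois (−0.92, adjusted p = 0.0192). The cadherin CDH20 was at 0.185 to 1.84 FPKM in Ross and 1.23 to 4.76 FPKM in Illinois, and the adhesion protein SDK1 at 0.301 to 2.44 FPKM in Ross and 1.49 to 3.10 FPKM in Illinois. FECH, the enzyme that puts iron into heme, averaged 1.62 ± 0.656 FPKM in Ross and 3.54 ± 0.812 FPKM in Illinois (−0.80, adjusted p = 0.0382). The calls held in 10 of 11 leave-outs for PTPRU, 9 for EMB, 8 for ARVCF, 7 for CDH20, 4 for SDK1 and 3 for FECH. SDK1 (0.0518) and FECH (0.0614) were lost after quantile normalization, and CDH20 with trial as an additive term (0.0703). In Ross of Fall 12, ARVCF was at 2.22 to 4.95 FPKM, EMB at 1.41 to 1.78 FPKM and FECH at 3.09 to 4.95 FPKM. CDH20 was at 1.95 to 4.36 FPKM there and SDK1 at 1.18 to 1.735 FPKM.

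Several lists had no called member: adipogenic regulators (6 tested), mitochondrial genes (5), the insulin and growth hormone axis (6), immune cell genes (3), red blood cell genes (1), heart and skeletal muscle genes (2), patterning factors (8), adrenergic and G-protein genes (9), and growth factor and kinase genes (4). The immediate early list had CTGF lower among 7 tested, the protein folding list HSP90B1 lower among 4, and the redox and retinoid list ALDH1A1 lower among 6. The medians of the insulin, patterning and mitochondrial lists were 0.08, −0.03 and −0.51. With 2.26% of tested genes higher and 9.55% lower, these counts are descriptions, and no list was tested against the other genes.

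**Figure D4:**
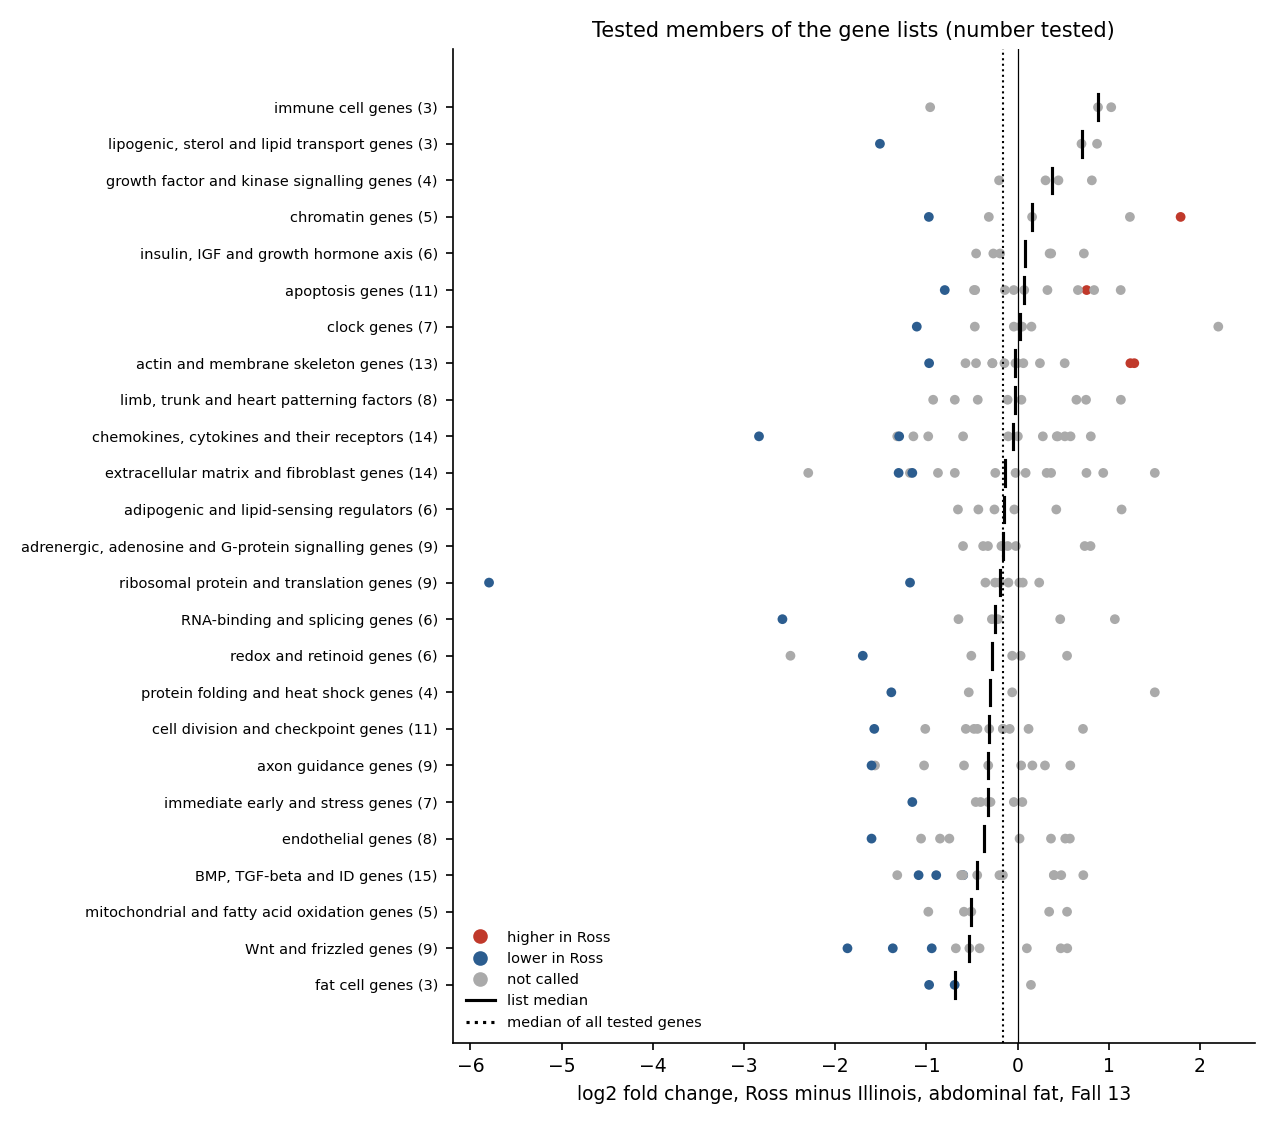
Log2 fold changes, Ross minus Illinois abdominal fat of Fall 13, of the tested members of each list with at least 3 tested genes, 1 point per gene, with a bar at the list's median and a dotted line at the median of all tested genes (−0.16). Red points rose, blue points fell and grey points were not called. Blue points lie in most lists, and red points lie in the cytoskeleton, chromatin and apoptosis lists.

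The line difference was not the same in both depots. Over the 23 libraries of Fall 13 and 427 tested genes, the difference of the line effect, abdominal minus cardiac, was called for 6 genes (1.41%). In all 6 the log2 fold change, Ross minus Illinois, was lower in abdominal fat than in cardiac fat. Without Illinois library 1096 the difference was called for 17 genes. With a replicate block by the number that column headers share between depots, added after the data were seen, it was called for 34. In cardiac fat the fit of all 23 libraries without a block called 4.45% of genes between the lines. CXCL12 had a difference of −2.39 ± 0.46 (SE, log2; adjusted p = 0.00697). Its cardiac levels were 34.9 ± 11.1 FPKM in Ross and 50.1 ± 21.4 FPKM in Illinois (SD, n = 4 and 8), so the wide gap of abdominal fat was not seen there. CAV1 was at 259 ± 74.8 FPKM in Ross and 169 ± 46.9 FPKM in Illinois cardiac fat, the other way round from abdominal fat (difference −1.58 ± 0.33, adjusted p = 0.0114). RPL35 was at 2351 ± 476 FPKM in Ross and 1874 ± 486 FPKM in Illinois cardiac fat (−1.53 ± 0.36, adjusted p = 0.0206). Within cardiac fat, limma did not call the line effect for CXCL12 (adjusted p = 0.439), CAV1 (0.113) or RPL35 (0.422).

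The other 3 were not called within abdominal fat but passed the test of the difference. PARK7, a redox-sensing chaperone of mitochondria and cytosol, was at 52.3 ± 3.48 FPKM in Ross and 75.9 ± 15.4 FPKM in Illinois abdominal fat, and at 93.9 ± 11.5 FPKM in Ross and 56.2 ± 7.84 FPKM in Illinois cardiac fat (difference −1.24 ± 0.23, adjusted p = 0.00697). MRPL23, a mitochondrial ribosomal protein, was at 39.2 ± 3.45 FPKM in Ross and 58.6 ± 13.6 FPKM in Illinois abdominal fat, and at 84.4 ± 8.92 FPKM in Ross and 52.1 ± 10.8 FPKM in Illinois cardiac fat (−1.25 ± 0.27, adjusted p = 0.0140). PCBD2, a dehydratase that recycles pterin cofactor, was at 32.9 ± 4.31 FPKM in Ross and 52.3 ± 11.5 FPKM in Illinois abdominal fat, and at 69.1 ± 5.82 FPKM in Ross and 43.3 ± 12.5 FPKM in Illinois cardiac fat (−1.35 ± 0.31, adjusted p = 0.0198). Within cardiac fat, limma called PARK7 and MRPL23 higher in Ross (adjusted p = 0.0190 and 0.0346) and did not call PCBD2 (0.0541). For the difference between depots, CXCL12, PCBD2, MRPL23 and PARK7 held in all 23 alternatives run. CAV1 was lost after quantile normalization (0.120), and RPL35 was lost under all 3 other scalings and without Ross library 1195 (adjusted p up to 0.166).

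**Figure D5:**
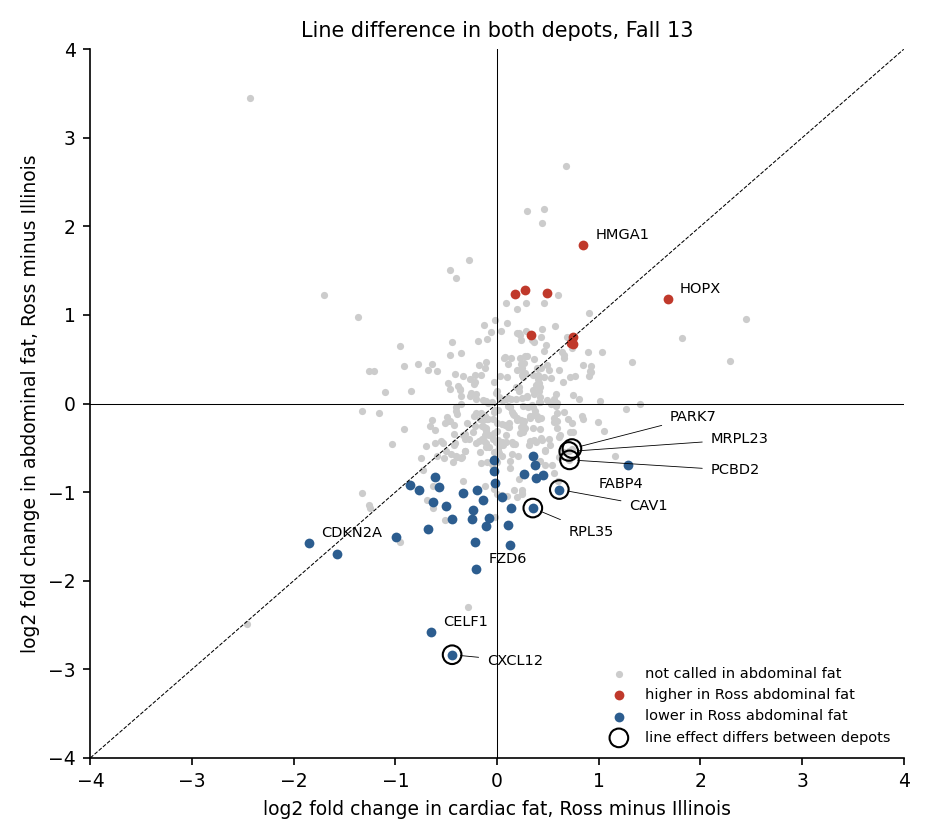
Each point is a gene tested in both fits (398 genes, of which EEF1A1 lies outside the axes), with the log2 fold change, Ross minus Illinois, in cardiac fat across and in abdominal fat upwards, both of Fall 13. Rings mark the 6 genes whose line effect differed between depots. All 6 lie below the dashed line of equal effects, and 5 of them, all but CXCL12, lie to the right of 0 in cardiac fat.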

How the data were processed

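Libraries of polyA RNA were made with Illumina's stranded kit (per the labels' protocols). Per the submitters' processing notes, the tools were Bowtie, TopHat and Cufflinks, with versions, roles and genome build not given in the sources used here. Values deposited by the authors were taken as FPKM from that tool and their range, since the file headers name no unit, and FPKM falls for all genes when 1 gene takes a larger share. Of 567 lines, 566 were complete, and 564 genes remained after 2 duplicates (EEF1A1, HOXA3). The value 0.001 is a floor. Names follow the table; 562 Entrez numbers were found in RefSeq's gene table, 541 with the same symbol.

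Genes reaching 1 FPKM in 4 or more of the 11 libraries were tested on log2(FPKM + 1), a scale that understates changes of low genes, with limma 3.58.1 in R 4.3.3 (trend and robust moderation, two-sided, Benjamini-Hochberg adjustment over all tested genes, threshold 0.05). Only the groups compared entered the fit, and the depot difference used all 23 Fall 13 libraries. The share of FABP4 was tested with an exact permutation test. Values are mean ± SD (Ross n = 4, Illinois n = 7), and fold changes carry SE. Total depth is unknown. Relative depth came from steps of low values: 96.3% of 1308 values in 96 genes lay within 0.05 fragments of a whole number, and 1 FPKM rested on about 31.9 fragments at median depth. The depths were fitted to bring these values close to whole numbers, so the 96.3% describes the fit and does not test it. The limma fit was tested on simulated data, and the depth estimate was not.

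Named genes were the 12 largest changes each way among called genes whose higher group averaged 5 FPKM or more, up to 4 further called members of each of 28 lists, and FABP4, PPARG, PPARA and ME1. Any further gene named was picked with its values in view. The result of 1 gene is not reported here. The groups compared and the lists were chosen with earlier results of these data known. Alternatives changed scaling, pseudocount, filter, moderation, weights and the libraries in the fit.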

Additional observations from a re-analysis of the deposited data

Results flagged for a closer look

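Of 152 groups of 4 to 10 values examined for a library far from the rest, 18 held one, and chance flags about 1 in 20 groups. In Ross, CELF1 was high in library 1196 at 5.566 FPKM, FBN2 and SDK1 were high in 1197 at 4.659 and 2.444 FPKM, FZD7 was high in 1198 at 2.703 FPKM, and CAV1 was low in 1198 at 147.4 FPKM. The FABP4 share was lowest in Ross library 1195, at 34.00% of the summed FPKM. In Illinois, SSBP3 was high in library 1093 at 35.77 FPKM, and PPARA was listed at the floor of 0.001 FPKM there. UNG was high in Illinois library 1094 at 23.43 FPKM, KIT was low in 1092 at 3.192 FPKM, and ADARB1 was low in 1098 at 9.642 FPKM. Muscle genes stood out at very low levels in Illinois: MYH7B at 0.2444 FPKM in 1094, and ANKRD1 at 0.1317 and MYOD1 at 0.08351 FPKM in 1099.

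Illinois library 1092 also stood at the high end of its group for 4 further genes. It held 489.4 FPKM of FBN1, 17.31 FPKM of SEMA3C, 8.207 FPKM of TBX18 and 56.14 FPKM of DPYSL3. None of the 4 was called between the lines.

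The line effect differed between abdominal and cardiac fat for 6 genes, by limma's test of the difference. On the log2 scale, abdominal minus cardiac, it was −2.393 for CXCL12, −1.583 for CAV1, −1.531 for RPL35, −1.348 for PCBD2, −1.246 for MRPL23 and −1.244 for PARK7.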

How the results depend on the processing

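The number of genes called between the lines was 47, and 25 with a mean of at least 10 FPKM required, where 247 genes were tested. Under the other 11 settings it was 48 to 69, with 59 after upper quartile scaling (17 higher, 42 lower), 60 after median ratio scaling (23 higher, 37 lower) and 63 after quantile normalization. Leaving out 1 library gave 20 to 57. A total of 16 genes were called in all 11 leave-outs and 11 under every setting in which they were tested. Over all settings the named genes gave 102 lost calls, 10 gained calls (PPARA and ME1) and 0 reversals. The FABP4 shares did not overlap, at 34.0 to 36.5% in Ross and 38.3 to 48.6% in Illinois. Leaving out 1 library could therefore change neither the sign nor the pass (exact permutation p 0.00952 to 0.0167). No paired analysis was possible because Ross and Illinois share no number, which holds for the comparison of the lines only.

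The difference of the line effect between depots was called for 6 genes. It was called for 10 with library weights, 14 with all 31 libraries and 6 to 17 when 1 library was left out, the highest without Illinois library 1096. The direction moved with the scaling: 4 were higher and 5 lower after quantile normalization, 3 and 5 after median ratio scaling, and 2 and 6 after upper quartile scaling. The median difference over all tested genes was −0.18, and 0.09 after median ratio scaling. Between depots, the second number of the column headers recurs in 11 pairs, whose correlations ran from −0.11 to 0.463, and 3 of 11 abdominal libraries correlated best with their own number. A replicate block by that number, added after the data were seen, gave 34 genes. The causes of these shifts were not tested. Depth limits genes near 1 FPKM most, and more so in Ross.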

Other observations

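Genes below the filter also separated the lines and were described by their values. LEPR, the leptin receptor, was at 0.165, 0.145, 0.178 and 0.0886 FPKM in Ross, against a lowest of 0.663, a median of 0.942 and a highest of 1.21 FPKM in Illinois. The groups did not overlap, and with no filter LEPR was called (limma adjusted p = 0.000678). PI15, a secreted inhibitor of trypsin, was at the floor in all 4 Ross libraries and at 0.056 to 0.706 FPKM in Illinois (adjusted p = 0.146 with no filter). The Fall 12 Ross libraries held 0.262 to 0.707 FPKM of LEPR and 0.251 to 1.41 FPKM of PI15.

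Further muscle genes were higher in Ross at low levels. MYH7B, a myosin heavy chain of slow and heart muscle, was at 0.261, 2.57, 1.3 and 6.13 FPKM in Ross, against 0.0179 to 0.244 FPKM in Illinois. ANKRD1, a stretch-responsive gene of heart muscle, was at 0.390, 1.34, 0.802 and 0.961 FPKM in Ross, against 0.001 to 0.132 FPKM in Illinois. With no filter on low values both were called (adjusted p = 0.0291 and 0.00155), as were CASQ2 (0.00399) and XIRP1 (0.0152), while MYOD1 was at 0.162 FPKM or less in Ross and at 0.0835 FPKM or less in Illinois. The Fall 12 Ross libraries held 0.001 to 0.0400 FPKM of MYH7B, 0.001 to 1.10 FPKM of ANKRD1 and 0.0164 to 0.268 FPKM of XIRP1.

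GZMA, a protease of cytotoxic lymphocytes, was at 9.86, 126, 69.4 and 22.0 FPKM in Ross, against a lowest of 0.481, a median of 2.06 and a highest of 56.3 FPKM in Illinois, and was not called (adjusted p = 0.141). P4HB, the protein disulfide isomerase of collagen folding, was at 171 to 294 FPKM in Ross and 34.2 to 307 FPKM in Illinois (adjusted p = 0.0976).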
